A study of Mus musculus with 11 samples.

Results

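The 39 genes described here encode proteins that bring a cell through mitosis: the cyclins and kinases of mitotic entry, the spindle checkpoint, the anaphase-promoting complex and separase, the kinetochore, the chromosomal passenger complex, spindle assembly factors, and condensin with its partners on the chromosome. They were chosen by gene symbol and not by a cut on their values, though with earlier results of these data known. They were found as 39 of the 20475 genes listed in each of the deposited tables. All 39 had a mean of at least 10 normalized counts in both tables, so none was lost to the filter on low values. RNA-seq was done on E12.5 mouse forebrain, which the study names cortex, in 2 knockouts of Kif20a, the gene of a kinesin that acts at the central spindle late in mitosis. The germline comparison held 3 wild-type libraries and 3 libraries of knockouts carrying a knockout-first allele, in which a LacZ and neomycin cassette interrupts Kif20a, in a strain founded by 1 ES cell clone. The inducible comparison held 3 libraries of Nestin-CreERT2; Kif20a fl/fl embryos, in which a tamoxifen-dependent Cre is driven by a regulatory element of Nestin active in neural progenitors, and 2 libraries of littermate controls that the labels call wild type and that the study describes as Kif20a fl/fl in its other experiments. Tamoxifen was given to the pregnant mothers of the inducible comparison at E9.5 and E10.5, and the germline comparison had none. Among the genes that the study lists as higher in the inducible knockouts are Y-linked Eif2s3y and Kdm5d, without signal in the controls. Sex was therefore not balanced between these groups, and effects of sex and genotype cannot be told apart there. Embryos of a comparison were littermates, but the labels do not say how many embryos a library holds, and P values measure the spread between libraries.

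Mitotic genes are expressed as a coordinated program in dividing cells. Their transcripts are low in G1, rise through G2 and peak in mitosis, under the DREAM complex, B-Myb and FoxM1. Some of their proteins, such as the B cyclins and securin, are destroyed at mitotic exit. In the E12.5 cortex this program runs in radial glia, which divide at the ventricular surface, and in intermediate progenitors, while neurons have left the cycle. In bulk tissue, fewer dividing cells and less of each transcript per dividing cell cannot be told apart.

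Promoter sequence, which played no part in the choice of members, was searched for the cell cycle homology region (CHR) core TTTGAA, an element through which DREAM and its mitotic successors act, and for the CCAAT box, which NF-Y binds. Both were searched on both strands (as TTTGAA or TTCAAA, and as CCAAT or ATTGG, which can share no more than 1 base) in 300 bases, from 250 before to 50 after each gene's start, in RefSeq sequence of build GRCm38.p6. Promoters matched 33 of the 39 members in 34 windows, since Bub3 has 2, and Ccna2, Cdc25c, Incenp, Smc4, Spc24 and Tpx2 had no entry. The CHR core was found in 24 of the 34 windows (70.6%), against 17.9% of all 32851 windows and 11.6% of the 13445 windows of genes tested in the germline comparison. The CCAAT box was found in 27 of the 34 (79.4%), against 37.4% and 37.7%. Both together were found in 23 of the 34 windows (67.6%), against 6.95% and 4.77%. These are matches of letters, not measured sites. Windows of 30 bases from 9 members are shown, from 6 of the 7 subgroups, so that the shared letters around the start can be seen. The CHR core is in capitals, and coordinates are of GRCm38.p6.
Hjurp (chr1:88277543-88277572, - strand): tgcgtaaatactTTTGAAagaccctattag
Cenpa (chr5:30666890-30666919, + strand): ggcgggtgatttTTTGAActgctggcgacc
Cenpf (chr1:189688067-189688096, - strand): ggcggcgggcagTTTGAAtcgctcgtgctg
Ccnb2 (chr9:70421533-70421562, - strand): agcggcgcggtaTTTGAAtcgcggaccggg
Cdk1 (chr10:69352910-69352939, - strand): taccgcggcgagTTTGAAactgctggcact
Bub1b (chr2:118598231-118598260, + strand): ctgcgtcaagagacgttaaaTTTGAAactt
Hmmr (chr11:40733412-40733441, - strand): agttgaggtaaaTTTGAAttcaggcgagct
Ncapg (chr5:45669883-45669912, + strand): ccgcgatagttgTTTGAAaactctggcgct
Espl1 (chr15:102296254-102296283, + strand): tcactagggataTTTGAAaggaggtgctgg
In Cdk1, Espl1 and Ncapg the core lies upstream of the start, at positions -15, -27 and -30, and in the other 6 it lies within the first 50 transcribed bases, from position 3 in Cenpf to position 41 in Bub1b, with 1 as the first base after the start. The 100 bases before the start of Cdc20 and Ube2c are shown because they hold both elements upstream, with the CHR core and the CCAAT boxes in capitals.
Cdc20 (chr4:118437344-118437443, - strand): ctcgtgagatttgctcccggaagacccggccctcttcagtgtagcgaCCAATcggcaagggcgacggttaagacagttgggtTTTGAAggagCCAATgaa
Ube2c (chr2:164769829-164769928, + strand): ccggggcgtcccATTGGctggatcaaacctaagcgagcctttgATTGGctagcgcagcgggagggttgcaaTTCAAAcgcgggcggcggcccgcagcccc
In Cdc20 the CHR core begins at -18, with CCAAT boxes at -53 and -8. In Ube2c the core stands on the other strand at -29, with reversed CCAAT boxes at -88 and -57. Neither element was found in the Pttg1, Birc5, Mad2l1, Ncaph, Nuf2 or Nusap1 window, which says only that these letters are not in these 300 bases.

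The libraries themselves differed in ways that touch these genes. Normalized counts summed over all genes were highest in knockout 2 among the germline libraries, at 15551300, against 13048700 to 13880700 in the other 5, and ran from 24118500 to 24497300 in the inducible libraries. Germline knockout 2 stood apart in its other cell types: 13 cranial mesenchyme markers summed to 280 normalized counts there, with Foxc2 and Twist2 at 0, against 4706 to 21060 in the other 5 germline libraries. The 11 microglia markers summed to 36.5 in knockout 2, with Mrc1 at 0, against 735 to 1363, and the 21 neuron markers to 126654, against 32565 to 71390. The 31 genes of the hypoxia and glycolysis list summed to 162346 in germline knockout 1 and 233891 in knockout 2, but to 76214 in knockout 3, against 67466 to 70723 in wild type. The 14 radial glia markers, of the progenitors that divide at the ventricle, summed to between 52252 and 59533 in the 6 germline and between 106037 and 114843 in the 5 inducible libraries. Even sums can hide single genes and shifts of a list. The median of the radial glia list against the wild-type mean, on the log2 scale, was -0.17, 0.07 and 0.07 in germline wild type. It was 0.15, 0.38 and 0.02 in germline knockouts 1, 2 and 3. Of its 14 genes, 10 were higher in the germline knockouts, where 44.0% of all genes tested were, with a median log2 fold change of 0.13. Fabp7 was lower in the germline comparison at P of 0.05 or less before adjustment, 7.14% of the list against 5.39% of all genes tested. In the inducible comparison Hes5, Emx2, Sox9 and Pou3f2 passed, 1 higher and 3 lower, 28.6% against 6.01%. The 10 markers of intermediate progenitors, which also divide, were less even in the germline libraries, with sums of 10246 to 13429 in wild type and 7975, 17450 and 8806 in knockouts 1, 2 and 3. Their median log2 fold change was -0.27, with Insm1 and Hes6 lower at P of 0.05 or less before adjustment. In the inducible libraries they summed to between 17707 and 19464. Values without knockout 2 stand beside the results of some mitotic genes and subgroups, and are not given for the marker lists. Leaving it out also moved others, among them Ccnb1, whose germline log2 fold change went from -0.14 to -4.7e-04. Ccnb2 went from -0.03 to 0.14, Ndc80 from -0.09 to 0.07, Ube2c from 0.12 to -0.03 and Birc5 from 0.12 to 0.25. As a check of the labels, Kif20a had normalized counts of 2456, 2295 and 2680 in germline wild type against 409, 374 and 503 in the knockouts, a log2 fold change of -2.54 (SE 0.15, adjusted p = 0.00845 by limma). With tamoxifen it stood at 4760 and 4844 in wild type and 3125, 2915 and 2853 in the knockouts, a log2 fold change of -0.70 (SE 0.06, adjusted p = 0.0107), so these libraries kept 61.7% of the wild-type mean.

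For 37 of the 39 mitotic genes no difference from wild type passed the test in either knockout. In the germline comparison 1 member, Hjurp, which encodes the chaperone that places CENP-A at centromeres, passed both of the study's thresholds, 1.5-fold or more with P at or under 0.05 before adjustment. That is 1 of 39 against 2.74% of the 13938 genes tested, a share near the background. At P alone, 2 members passed, Hjurp and Pttg1, against 5.39% of all genes, and none passed an adjusted p of 0.05, against 0.00717% (1 gene, Kif20a). For the inducible knockout no member passed both thresholds, where 1.29% of 14081 genes did, none had a P of at most 0.05, where 6.01% of genes did, and none passed the adjusted p by limma, where 0.0355% did. All knockout libraries lay above all wild-type libraries for 2 members in the germline comparison (Hjurp and Pttg1, background 5.9%) and for none in the inducible comparison (background 10.4%). All lay below for 2 members in the germline (Cdc20 and Ckap2, background 7.55%) and for 1 in the inducible comparison (Cdc25b, background 12.2%).

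The intervals set how large a change could have gone unseen. The median log2 fold change of the members was -0.01 in the germline comparison, where 17 were higher and 22 lower than wild type, beside a median of -0.04 over all genes tested. In the inducible comparison it was -0.02, with 14 higher and 25 lower, beside -0.0019 over all genes. The 95% intervals of 27 of the 39 members lay inside a 1.5-fold change either way in the germline comparison, and those of all 39 did in the inducible comparison, against 31.0% and 77.4% of all genes tested. The members' median standard error on the log2 scale was 0.16 for the germline and 0.07 for the inducible knockout. Values for all 39 genes are side by side in the plot of log2 fold changes: 12 were lower and 4 higher than wild type in both comparisons, 13 were higher in the germline and lower in the inducible comparison, and 10 the reverse.

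**Figure D1:**
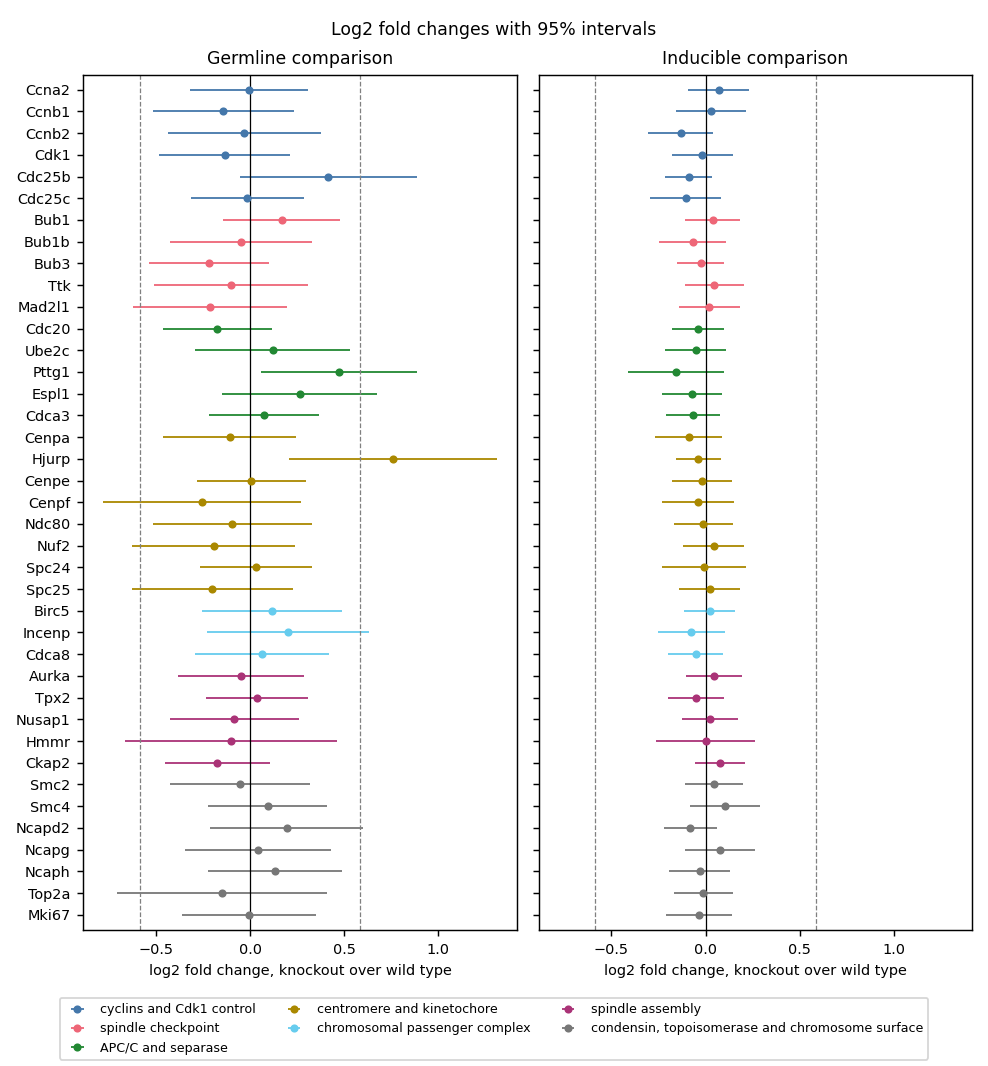
Log2 fold change of each of the 39 genes, knockout over wild type on the log2(normalized count + 1) scale, with its 95% limma interval as a bar, for the germline (left) and inducible (right) comparison; colours mark subgroups and dashed lines a 1.5-fold change. Only the germline intervals of Hjurp and Pttg1 exclude 0, and all 39 inducible intervals stay between the dashed lines.

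The members' medians differed more between libraries of the same group than between genotypes. In the germline comparison, wild-type replicate 2 lay below the wild-type mean for 34 of the 39 genes and replicate 3 above it for 35, with medians of -0.11 and 0.10 on the log2 scale. Knockout 1 had a median of 0.08, knockout 3 of 0.04 and knockout 2 of -0.15, and the members of knockout 2 were spread from -0.76 (Cenpf) to 1.25 (Hjurp). In the inducible comparison 38 of the 39 genes were higher in wild-type replicate 2 than in replicate 1, with medians of 0.06 and -0.06, while knockouts 1, 2 and 3 had medians of 0.06, -0.02 and -0.06. Knockout 1 was the highest library for 21 members (53.8%) and knockout 3 the lowest for 20 (51.3%), against 22.7% and 23.2% of all genes tested.

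**Figure D2:**
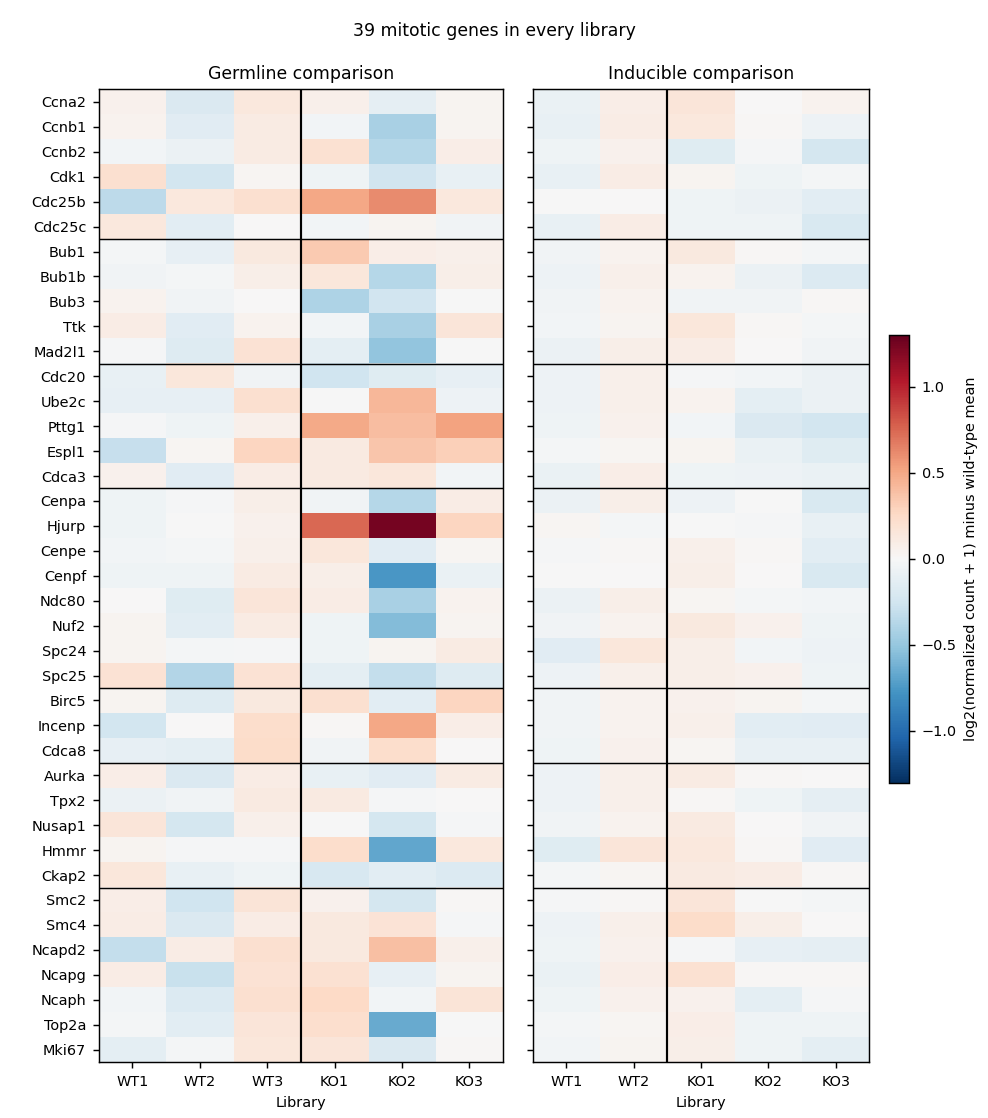
Each row is 1 of the 39 genes and each column a library; colour gives log2(normalized count + 1) minus the wild-type mean of that gene and comparison, from blue (lower) to red (higher). Horizontal lines separate the 7 subgroups in the order of the text, and a vertical line separates wild type from knockout; germline knockout 2 holds both the reddest cell, Hjurp at 1.25, and the bluest, Cenpf at -0.76.

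Cyclin A2 and the B cyclins activate CDK1 to start mitosis, and the CDC25 phosphatases remove its inhibitory phosphates. None of the 6 genes passed the test in either comparison, and their median log2 fold changes were -0.02 (0.02 without germline knockout 2) and -0.05. Ccna2, the highest of them per length at 1358 normalized counts per kilobase of exon in germline wild type, stood at 4947, 4152 and 5201 normalized counts in germline wild type and 4951, 4373 and 4865 in the knockouts. The groups overlapped throughout, with a log2 fold change of -0.01 (SE 0.13). Ccna2 in the inducible libraries stood at 7755 and 8700 in wild type and 9132, 8264 and 8471 in the knockouts (log2 fold change 0.07, SE 0.07). Its exons share 512 bases with Exosc9 on the other strand, and reads there cannot be told apart without a known strand setting. Cdc25b, which activates cyclin B and CDK1 at the centrosome, stood at 756, 1048 and 1101 in germline wild type and 1352, 1464 and 1048 in the knockouts. Knockouts 1 and 2 lay above all wild-type libraries and knockout 3 at the level of wild-type replicate 2, with a log2 fold change of 0.42 (SE 0.20, adjusted p = 0.779), or 0.32 without knockout 2. In the inducible comparison the order was the other way round, with 2564 and 2600 in wild type and 2481, 2453 and 2341 in the knockouts. The groups did not overlap, yet the log2 fold change was -0.09 (SE 0.05, adjusted p = 0.863). Ccnb1, Ccnb2, Cdk1 and Cdc25c had germline log2 fold changes between -0.14 and -0.01 and inducible ones between -0.13 and 0.03. Cdc25c lies on chromosome 18 with Kif20a, and its log2 fold changes were -0.01 and -0.11 (adjusted p = 0.982 and 0.884).

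BUB1, BUBR1 (Bub1b), BUB3, MPS1 (Ttk) and MAD2 (Mad2l1) hold back anaphase until every kinetochore is attached. None of the 5 genes passed the test in either comparison, and their medians were -0.10 (0.06 without germline knockout 2) and 0.02. Bub3, the highest per length at 837 counts per kilobase, stood at 1773, 1665 and 1724 normalized counts in germline wild type and 1304, 1449 and 1711 in the knockouts. Knockouts 1 and 2 lay below wild type and knockout 3 within it (log2 fold change -0.22, SE 0.14, adjusted p = 0.779). Bub3 in the inducible libraries stood at 3362 and 3572 in wild type and 3356, 3353 and 3497 in the knockouts (log2 fold change -0.03, SE 0.05). Bub1 had the only positive germline value of the 5, 0.17 (SE 0.13). Bub1b, Ttk and Mad2l1 were lowest in germline knockout 2, at 1927, 815 and 1026 normalized counts, against at least 2401, 986 and 1301 in the other 5 libraries. Their germline log2 fold changes were -0.05, -0.10 and -0.21 with it and 0.11, 0.06 and -0.06 without it.

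CDC20 and UBE2C drive ubiquitination by the anaphase-promoting complex, securin (Pttg1) inhibits separase (Espl1), the protease that cleaves cohesin, and CDCA3 promotes mitotic entry. Pttg1 was higher in the germline knockouts at P of at most 0.05 and below the 1.5-fold threshold, and the other 4 genes did not pass. Pttg1 stood at 121, 118 and 128 normalized counts in germline wild type and 172, 161 and 176 in the knockouts. The groups did not overlap and their spread was small, at 122 ± 5.19 and 170 ± 7.61 (mean ± SD, n = 3 each). The log2 fold change was 0.47 (SE 0.18, 95% interval 0.06 to 0.89, adjusted p = 0.779), and its unadjusted P rose above 0.05 in 5 of 6 fits that each left out 1 library, all but the one without knockout 2. It has the lowest level of all 39 genes per length, 61.0 counts per kilobase, so its values rest on fewer reads than those of the others. Pttg1 in the inducible libraries stood at 277 and 300 in wild type and 281, 253 and 244 in the knockouts, with a log2 fold change of -0.15 (SE 0.11, adjusted p = 0.884). Pttg1 lies at chr11:43233752-43239753 on the minus strand of NCBIM37 (mm9), and no other gene's exons overlap its own. Cdc20, the highest of the 5 per length at 780 counts per kilobase, stood at 1358, 1611 and 1404 in germline wild type and 1215, 1307 and 1346 in the knockouts. All knockouts lay below all wild-type libraries, by a log2 fold change of -0.17 (SE 0.12, adjusted p = 0.791) that did not pass the test and was -0.10 without wild-type replicate 2. Cdc20 in the inducible libraries stood at 3358 and 3697 in wild type and 3497, 3435 and 3339 in the knockouts (log2 fold change -0.04, SE 0.06). Espl1, Ube2c and Cdca3 had germline log2 fold changes of 0.26, 0.12 and 0.08 and inducible ones of -0.07, -0.05 and -0.07. Reads of Ube2c may include those of Tnnc2, whose exons overlap its own by 592 bases on the other strand.

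CENP-A is the histone that marks the centromere, HJURP deposits it, CENP-E and CENP-F act at the outer kinetochore, and NDC80, NUF2, SPC24 and SPC25 form the complex that grips microtubules. Hjurp was the only member past both thresholds, higher in the germline knockouts and not in the inducible ones. It stood at 4299, 4464 and 4642 normalized counts in germline wild type and 7518, 10590 and 5434 in the knockouts. All knockouts lay above all wild-type libraries, but the knockouts differed from each other more than the wild-type libraries did, with means of 4468 ± 172 and 7848 ± 2594 (SD, n = 3 each). The log2 fold change was 0.76 (SE 0.23, 95% interval 0.21 to 1.31, adjusted p = 0.779). Without knockout 2 it was 0.52 (SE 0.15, adjusted p = 0.213), below the 1.5-fold threshold. The order of the knockouts, 2 above 1 above 3, was also that of the median of the hypoxia and glycolysis list (2.41, 1.99 and 0.18). The radial glia list (0.38, 0.15 and 0.02) and the choroid plexus and cortical hem list (0.90, 0.64 and 0.46) shared this order. So did the intermediate progenitor list (0.21, -0.34 and -0.42) and the normalized counts summed over all genes. The neuron list had another order (0.93, -0.98 and -0.70). The part of any of these in the value was not tested. Hjurp in the inducible libraries stood at 9741 and 9456 in wild type and 9550, 9495 and 9005 in the knockouts, with a log2 fold change of -0.04 (SE 0.05, 95% interval -0.16 to 0.08). Hjurp lies at chr1:90155690-90174208 on the minus strand of NCBIM37, and 169 of its 9026 exon bases overlap Heatr7b1 on the other strand. Cenpa, the substrate of the chaperone, did not follow it: it stood at 1501, 1538 and 1641 in germline wild type and 1507, 1204 and 1670 in the knockouts (log2 fold change -0.11, SE 0.15, adjusted p = 0.869, and 0.03 without knockout 2). Cenpa was the highest of the 8 per length in inducible wild type, with 2610 and 2902 normalized counts in wild type and 2624, 2748 and 2396 in the knockouts (log2 fold change -0.09, SE 0.08). Nuf2 was the highest per length in germline wild type, with 1886, 1667 and 1971 in wild type and 1773, 1238 and 1885 in the knockouts (log2 fold change -0.19, SE 0.18, and -0.0069 without knockout 2), and with 2585 and 2773 in inducible wild type and 2921, 2792 and 2574 in the knockouts (log2 fold change 0.04, SE 0.07). Cenpf stood at 7168, 7148 and 7998 in germline wild type and 7847, 4385 and 7019 in the knockouts, with knockout 2 far below the others (log2 fold change -0.25, SE 0.22, and -0.0012 without knockout 2). Ndc80, Spc24 and Spc25, with Nuf2 the subunits of 1 complex, had germline values of -0.09, 0.03 and -0.20 and inducible values of -0.01, -0.01 and 0.02, and Cenpe had 0.01 and -0.02.

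**Figure D3:**
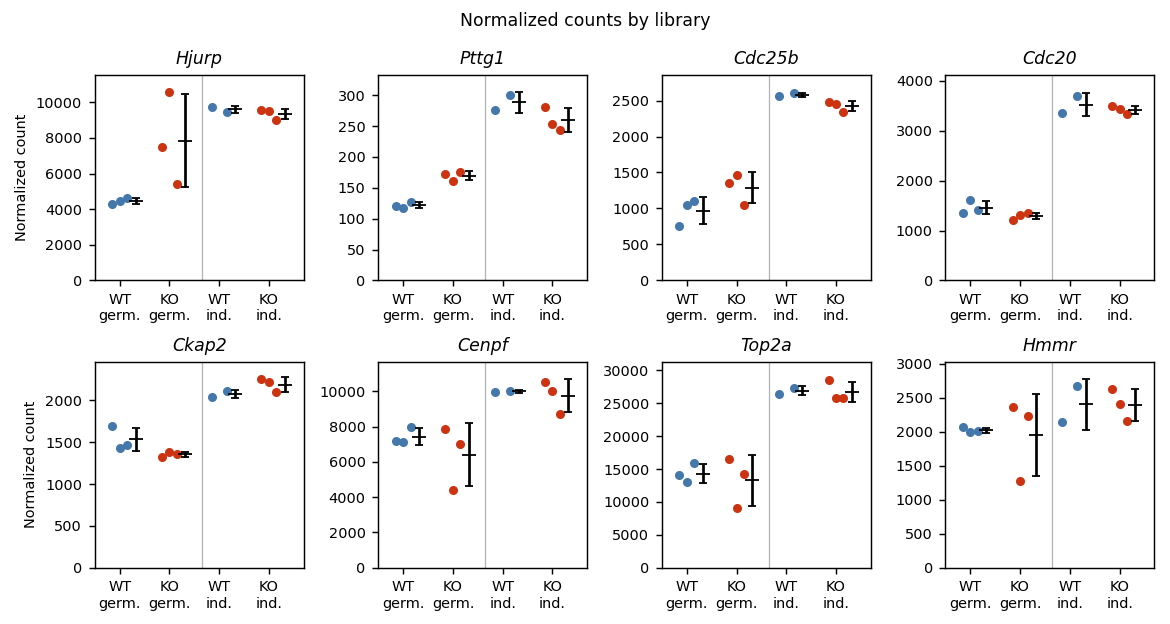
Normalized counts of 8 genes in every library, blue for wild type and red for knockout, germline left and inducible right of the grey line; black marks give the mean and SD of each group (3 libraries, 2 in inducible wild type), and each axis starts at 0. The germline knockouts of Hjurp and Pttg1 lie above wild type, while Cenpf, Top2a and Hmmr show 1 low library, knockout 2; the tables of the comparisons were normalized separately, so levels left and right of the line are not comparable.

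INCENP, survivin (Birc5) and borealin (Cdca8) carry Aurora B to centromeres and then to the central spindle, where KIF20A is needed for its relocation in anaphase. None of the 3 genes passed in either comparison, and their medians were 0.12 (0.05 without germline knockout 2) and -0.05. Incenp, the highest per length, stood at 1505, 1784 and 2071 normalized counts in germline wild type and 1788, 2510 and 1887 in the knockouts. Knockouts 1 and 3 lay within the wild-type range and knockout 2 above it (log2 fold change 0.20, SE 0.18, adjusted p = 0.822, and 0.05 without knockout 2). Incenp in the inducible libraries stood at 5013 and 5316 in wild type and 5409, 4686 and 4645 in the knockouts (log2 fold change -0.07, SE 0.08). Birc5 and Cdca8 had germline values of 0.12 and 0.06 and inducible values of 0.02 and -0.05.

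Aurora A (Aurka) and its activator TPX2 build the spindle from centrosomes and chromatin, and NUSAP1, HMMR and CKAP2 bind its microtubules. None of the 5 genes passed in either comparison, and their medians were -0.08 (0.0030 without germline knockout 2) and 0.02. Tpx2, the highest per length at 811 counts per kilobase, stood at 3593, 3673 and 4116 normalized counts in germline wild type and 4120, 3750 and 3794 in the knockouts (log2 fold change 0.04, SE 0.12). Its inducible values were 7612 and 8333 in wild type and 8048, 7686 and 7332 in the knockouts (log2 fold change -0.05, SE 0.06). The groups of Tpx2 overlapped in both comparisons. Ckap2 stood at 1693, 1434 and 1473 in germline wild type and 1324, 1387 and 1353 in the knockouts. All knockouts lay below wild type, by a log2 fold change of -0.17 (SE 0.12, adjusted p = 0.788) that was -0.10 without wild-type replicate 1. Ckap2 in the inducible libraries stood at 2041 and 2111 in wild type and 2255, 2220 and 2095 in the knockouts (log2 fold change 0.08, SE 0.06). Hmmr was near 2000 in every germline wild-type library (2066, 1996 and 2006) and stood at 2372, 1269 and 2227 in the knockouts, with a log2 fold change of -0.10 (SE 0.24). Without knockout 2, whose value was the lowest of the 6, it was 0.18. Aurka and Nusap1 had germline values of -0.05 and -0.08 and inducible values of 0.04 and 0.02.

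SMC2, SMC4, NCAPD2, NCAPG and NCAPH are the 5 subunits of condensin I, which compacts mitotic chromosomes with topoisomerase II alpha (Top2a), and Ki-67 (Mki67) coats their surface. None of the 7 genes passed in either comparison, and their medians were 0.04 (0.10 without germline knockout 2) and -0.01. Mki67 and Top2a had the highest levels per length of all 39 genes in both tables, 1757 and 1576 counts per kilobase in germline wild type. Mki67, the usual marker of cycling cells, stood at 16206, 17296 and 19604 normalized counts in germline wild type and 19697, 15502 and 17793 in the knockouts. The means were 17702 ± 1735 and 17664 ± 2101 (SD, n = 3 each). The log2 fold change was -0.01, with a 95% interval of -0.36 to 0.35. Mki67 in the inducible libraries stood at 34586 and 36376 in wild type and 37414, 34210 and 32438 in the knockouts, a log2 fold change of -0.03 with a 95% interval of -0.21 to 0.14. Top2a stood at 14020, 12961 and 15912 in germline wild type and 16533, 9031 and 14217 in the knockouts, the highest and the lowest value both in a knockout (log2 fold change -0.15, SE 0.24, and 0.11 without knockout 2). Its inducible values were 26452 and 27393 in wild type and 28549, 25850 and 25812 in the knockouts (log2 fold change -0.01, SE 0.07). The subunits of condensin I had germline log2 fold changes from -0.05 (Smc2) to 0.19 (Ncapd2) and inducible ones from -0.08 (Ncapd2) to 0.10 (Smc4). Ncapg shares 942 exon bases with Lcorl on the other strand.

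Members of germline knockout 2 lay on both sides of the other knockouts. Set against the mean of knockouts 1 and 3, Hmmr, Top2a and Cenpf were lowest in knockout 2, by -0.86, -0.76 and -0.76 on the log2 scale, and Hjurp, Ube2c and Incenp were highest, by 0.73, 0.46 and 0.45. This difference rose with the GC content of a gene's exons over the 39 members, with Pearson's r = 0.56 and Spearman's rho = 0.56. Over the 12862 genes tested that have a GC content from the annotation, r was 0.07 and rho 0.13. Genes share the library, so these are descriptions across genes, with no test. Knockout 2 was the lowest library for 15 members (38.5%) and the highest for 8 (20.5%), against 30.5% and 33.8% of all genes tested. Without it, the median log2 fold change of the members was 0.05 with a median standard error of 0.14, and values ran from -0.20 (Bub3) to 0.52 (Hjurp). The median of the kinetochore genes went from -0.10 to 0.03 and that of the APC/C and separase genes from 0.12 to 0.04. Hjurp and Pttg1 then had a P of at most 0.05 and no member passed both thresholds, while 14.4% and 8.77% of the 14008 genes tested did so.

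**Figure D4:**
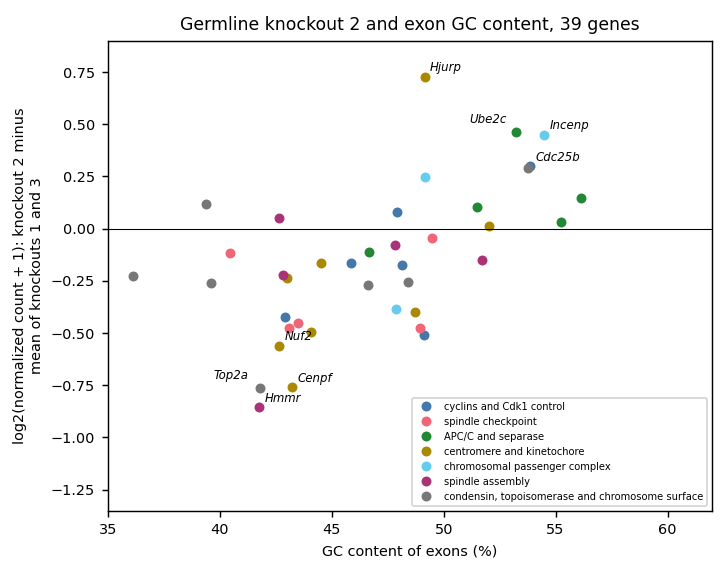
Difference of germline knockout 2 from the mean of knockouts 1 and 3, on the log2(normalized count + 1) scale, against the GC content of the exons in percent, 1 point for each of the 39 genes, coloured by subgroup. Hmmr, Top2a, Cenpf and Nuf2 lie lowest, at 41.7 to 43.2% GC, and Ube2c, Incenp and Cdc25b, at 53.2 to 54.5% GC, lie among the highest with Hjurp.

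A longer list held the rest of the mitotic program. Of 87 further mitotic genes found in the tables (anaphase-promoting complex subunits, other centromere proteins, centrosome kinases, cohesin and central spindle genes), 2 were higher and 1 lower at P of at most 0.05 in the germline comparison, and 2 were lower in the inducible comparison, with medians of -0.04 and 1.4e-05. These are 3.45% and 2.30% of the list, against 5.39% and 6.01% of all genes tested. Only Zwilch, a subunit of the kinetochore RZZ complex, passed both thresholds. It stood at 668, 516 and 748 normalized counts in germline wild type and 971, 1118 and 836 in the knockouts (log2 fold change 0.60, SE 0.19, adjusted p = 0.779). Without knockout 2 it was 0.50, under the 1.5-fold threshold. Pkmyt1, the kinase that inhibits CDK1, had a log2 fold change of 0.56 (adjusted p = 0.779) and Cenpb, which binds centromere repeats, one of -0.41 (adjusted p = 0.779), or 0.38 and -0.30 without knockout 2, where both had a P above 0.05 before adjustment. In the inducible comparison Anapc2, the cullin of the anaphase-promoting complex, had -0.12 (adjusted p = 0.825) and Cenpo, of the inner kinetochore, -0.17 (adjusted p = 0.825). Of 18 genes for factors that transcribe the program, 1 passed at P of at most 0.05, Nfyb, an NF-Y subunit, which was lower in the germline knockouts by a log2 fold change of -0.35 (adjusted p = 0.779). That is 5.56% of the list, near the 5.39% of all genes tested, and without knockout 2 the value was -0.28 with an unadjusted P above 0.05. Foxm1 stood at 1341, 1651 and 2035 in germline wild type and 2003, 3392 and 2003 in the knockouts. Knockout 2 was the highest and the others lay within wild type, with a log2 fold change of 0.53 (SE 0.25, adjusted p = 0.779), or 0.28 (SE 0.17) without knockout 2. Its inducible value was -0.06 (SE 0.08). Mybl2, which encodes B-Myb, had log2 fold changes of 0.24 (adjusted p = 0.799) and -0.0021 (adjusted p = 0.997).

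Lists of other cell types spanned wider ranges between the germline libraries than the mitotic genes did. The median of the members against the wild-type mean ran from -0.15 to 0.08 in the germline knockouts, while that of the neuron list was -0.98, 0.93 and -0.70 in knockouts 1, 2 and 3 and that of the cranial mesenchyme list 1.76, -4.91 and 0.84. The hypoxia and glycolysis list had medians of 1.99, 2.41 and 0.18. All these lists were chosen with earlier results of these data known. Eno1, Ldha, Pgk1, Tpi1 and Aldoa of the hypoxia and glycolysis list are among the study's higher germline genes. The contrast with the members is therefore a description and no test. In the inducible knockouts the members ran from -0.06 to 0.06, the neuron list from 0.03 to 0.30 and the hypoxia list from -0.15 to -0.01. The list of choroid plexus and cortical hem genes had medians of -0.24, -0.32 and -1.08 in inducible knockouts 1, 2 and 3. Of its 14 genes, 5 were lower and none higher at P of 0.05 or less before adjustment, 35.7% against 6.01% of all genes tested. Inducible knockout 3, the lowest library for 20 members, was also the lowest for this list. By median it was the lowest for the radial glia list too (-0.11). It was the highest for the neuron (0.30), endothelium (0.35) and microglia (0.49) lists. For the intermediate progenitor, erythroid, cranial mesenchyme and hypoxia lists it was neither. In germline knockouts 1, 2 and 3 the medians of the choroid plexus and cortical hem list were 0.64, 0.90 and 0.46. There 6 of the 14 genes were higher and 1 lower, 50.0% against 5.39%. The part of cell composition in the members' values was not tested.

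**Figure D5:**
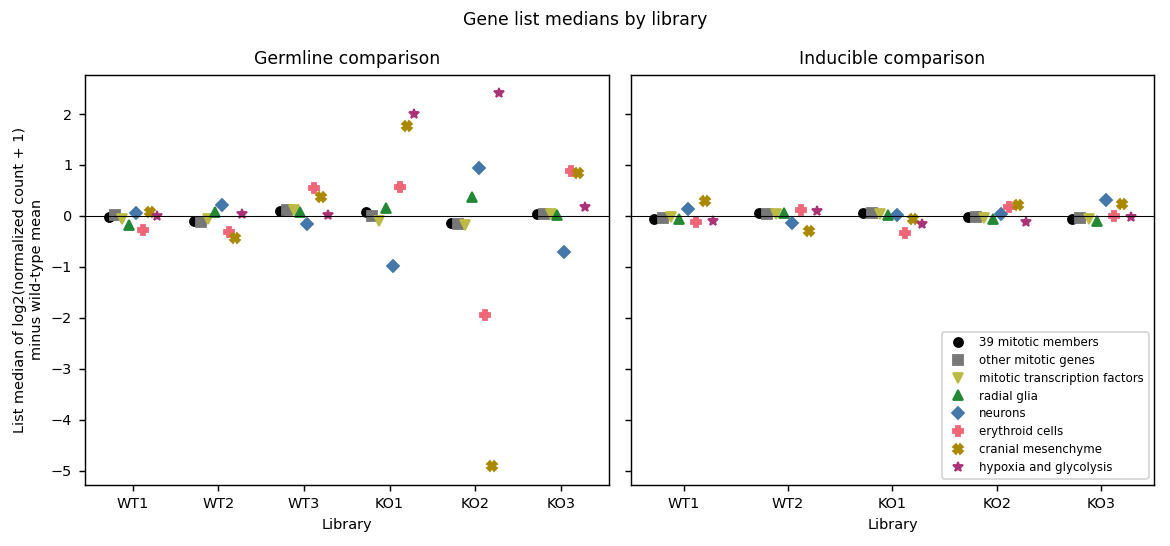
Median over the genes of each list of log2(normalized count + 1) minus the wild-type mean, for every library of the germline (left) and inducible (right) comparison. The 39 mitotic genes, black, stay between -0.15 and 0.10 in every library, while cranial mesenchyme reaches -4.91 and hypoxia and glycolysis 2.41 in germline knockout 2.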

How the data were processed

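RNA-seq of poly(A) RNA gave 11 libraries. Reads were aligned by the authors with TopHat (1.2.0 in the submitters' processing notes) to mm9, counted over RefSeq exons, each read entering a gene a single time, and scaled in edgeR by TMM. The deposited signal is the resulting normalized count, equalized within a table, without division by gene length and without log transformation. The strand setting is not given in the sources used here. Because the values are fractional, count models were not used, and because the tables were normalized separately, every test stayed within a table. A change common to most genes would be removed by this scaling. All per-sample columns were used (0 left out).

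Analyses used log2(normalized count + 1) and limma 3.58.1 in R 4.3.3 (mean-variance trend, two-sided). Genes averaging 10 or more normalized counts entered the fit, 13938 germline and 14081 inducible. Adjusted p-values are Benjamini-Hochberg over all of them. The fit was tested on simulated data with 200 changed genes, an equal spread in all libraries and none that stood apart. That does not test it for libraries as uneven as the germline knockouts. Levels per length use exons of GENCODE M1 (NCBIM37). The members and lists were chosen with earlier results of these data known. Every member is described, and every library's value is given for those with P of at most 0.05, with groups that do not overlap, or with the highest level per length in their subgroup. Values of Cenpf, Hmmr, Top2a, Bub1b, Ttk, Mad2l1 and, in the germline, Cenpa and Cdc25b were added after they were seen. From the further mitotic genes, those with P of at most 0.05 are named, with Foxm1 and Mybl2. Alternatives were pseudocount 5, no filter, quantile and median ratio scaling, no trend, array weights, each library left out, a replicate block and, added after seeing the data, centring by GC content in 20 bins. One promoter window is not reported here.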

Additional observations from a re-analysis of the deposited data

Results flagged for a closer look

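For 5 of the 39 genes, every germline knockout library lay on one side of the wild-type mean and every inducible knockout library on the other. The same holds for 10.8% of the 13737 genes tested in both comparisons, against 12.8% of the members. The tables were normalized separately, so the difference between the knockouts was not tested. Hjurp had log2 fold changes of 0.76 and -0.04, 0.80 apart, Pttg1 of 0.47 and -0.15, 0.63 apart, and Cdc25b of 0.42 and -0.09, 0.51 apart. Ncapd2 had 0.19 and -0.08, 0.27 apart. Ckap2 was the only one of the 5 that was lower in the germline and higher in the inducible knockouts, at -0.17 and 0.08, a difference of -0.25.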

How the results depend on the processing

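Hjurp passed both thresholds in the germline comparison under 13 of 14 alternatives, with log2 fold changes from 0.59 to 1.00, so the count of members past both thresholds was 1 under each, and without knockout replicate 2 it was 0 (log2 fold change 0.52). The count over all libraries left out in turn ranged from 0 to 1 in the germline and stayed at 0 in the inducible comparison. The number of members with an unadjusted P of at most 0.05 was 2 in the germline comparison and ranged from 1 to 3 over the libraries left out, and in the inducible comparison from 0 to 1, the 1 being Incenp without knockout 1 and Ccnb2 without knockout 2. Pttg1 kept a log2 fold change between 0.45 and 0.55 under all 14 alternatives but had a P above 0.05 in 5 of the 6 fits with a germline library left out, all but the one without knockout 2. Deviations from the group means correlated at -0.12, 0.31 and 0.25 between same-numbered germline libraries, and at 0.33 between wild-type replicate 3 and knockout 1. Deviations within a group depend on each other, so these values cannot decide whether the numbers pair the libraries. The main fit did not take the numbers as pairs. With a replicate block the number at P of at most 0.05 was 1, Hjurp alone. The block on the 2 shared inducible numbers gave 0. The members' median log2 fold change moved by less than the spread between replicates under every alternative, from -0.08 to 0.05 in the germline and from -0.07 to 0.02 in the inducible comparison, and so had either sign. The log2 fold changes named for groups that do not overlap kept their sign under every alternative, Cdc20 from -0.22 to -0.10, Ckap2 from -0.22 to -0.10 and Cdc25b from -0.11 to -0.06. Kif20a stayed lower throughout, from -2.66 to -2.44 in the germline and from -0.74 to -0.67 in the inducible comparison, but its adjusted p rose above 0.05 when germline wild-type replicate 1, 2 or 3 or knockout 1 was left out (0.106 to 0.185), when inducible wild-type replicate 1 or 2 or knockout 2 was left out (0.142 to 0.193), in the inducible fit without trend (-0.70, adjusted p = 0.147) and under the inducible block (-0.67, adjusted p = 0.303). Fits that leave 1 inducible wild-type library assume that it varies as the others do. With 2 or 3 libraries a group, the germline intervals of 12 members reach past a 1.5-fold change.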
